A study of Homo sapiens with 12 samples.

Results

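The genes described here are 36 listed genes of epithelial cell junctions and of the epithelial program. They were examined in cells labelled as the human breast cancer line MDA-MB-231. A listed gene counted as measured when the array had a probe set naming that gene alone, and the probe set with the highest mean over all 12 arrays was used where there were several. By this rule 32 of the 36 genes were measured, among 11963 genes in all. CTNND1 and ESRP2 stood only in probe sets that name several genes, F11R and CGN had no usable probe set, and these 4 genes have no value here. By the submitters' account, the study put stable constructs into MDA-MB-231 cells to lower or to raise LSD2, the histone demethylase encoded by KDM1B. Total RNA was measured on 12 Affymetrix arrays. The 4 groups of 3 biological replicates each were cells carrying an LSD2 shRNA, cells carrying a scramble shRNA as their control, cells carrying an LSD2/eGFP/Flag vector, and cells carrying an eGFP/Flag vector as their control. All groups share a medium with G418 at 800 µg/ml, which removes cells that lack the plasmid. Whether the stable cells were clones or pools is not given in the sources used here, so groups and stable lines cannot be told apart, and the p-values measure only the spread between arrays of those lines.

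Epithelial cells are held together by tight junctions, adherens junctions and desmosomes. Claudins and occludin form the tight junction seal and are tied to the cytoskeleton by scaffold proteins. Desmosomes join the keratin filaments of neighbouring cells through the cadherins of the desmocollin and desmoglein families, with plakophilins, plakoglobin and desmoplakin in the plaque. Many of these genes are silenced together in cells that have taken on mesenchymal traits, where repressors of the ZEB and SNAI families bind short E-box sequences in epithelial promoters. MDA-MB-231 is known for a mesenchymal-like state with high vimentin and without E-cadherin. LSD2 removes methyl groups from lysine 4 of histone H3.

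Arrays of 1 group correlated over genes at r from 0.996 to 0.998. Between LSD2 shRNA and scramble arrays r was 0.991 to 0.994, and between the arrays labelled LSD2/eGFP/Flag and their eGFP/Flag controls it was 0.904 to 0.908. The eGFP/Flag arrays were closer to the separately normalized shRNA and scramble arrays, at 0.951 to 0.957 with LSD2 shRNA and 0.943 to 0.950 with scramble arrays, while the LSD2/eGFP/Flag arrays had 0.865 to 0.870 and 0.866 to 0.870 with those groups. The LSD2/eGFP/Flag arrays thus stand apart from the other 3 groups. The array has 0 usable probe sets for KDM1B, so neither construct could be checked on its target. The 6 shRNA arrays and the 6 vector arrays differ in their lowest and median values and were treated as normalized separately, and no level was tested between them. Of 9 genes known to be high in MDA-MB-231 (VIM, CD44, CAV1, AXL, EGFR, ANXA1, TGFBI, FOSL1 and NT5E), 9 were lower in the arrays labelled LSD2/eGFP/Flag than in the eGFP/Flag arrays, with a median difference of -6.75 log2 units. The log2 of their summed signal was 12.64 to 12.93 in the LSD2/eGFP/Flag arrays and 15.97 to 16.05 in the eGFP/Flag arrays, and CD44 averaged 3.99 ± 0.07 and 12.41 ± 0.20 (SD, n = 3 each). The arrays labelled LSD2/eGFP/Flag thus lack high levels of most of the defining markers of the labelled line, and VIM, at 12.73 ± 0.19 against 14.18 ± 0.04, is the exception. This goes against their label as MDA-MB-231. Whether these cells were MDA-MB-231 cannot be told from the files, so each vector difference below compares the arrays labelled LSD2/eGFP/Flag with the eGFP/Flag arrays, and the construct cannot be told apart from a difference in the cells. In the LSD2 shRNA arrays the same sum was 15.10 to 15.16, against 15.12 to 15.14 in the scramble arrays, although limma called TGFBI lower (-0.70 log2 units, adjusted p = 0.00609) and NT5E higher (0.56, 0.0156). In the LSD2 shRNA arrays, where 10.5% of all genes were called, the called markers of other cells were all higher. They were FOXA1 (0.74) and XBP1 (0.61) of 10 luminal markers, PECAM1 (0.92) of 6 fibroblast and endothelial markers and LYZ (0.35) of 4 blood markers. At an unadjusted limma p under 0.05, the luminal KRT8 (-0.30) and KRT18 (-0.25), PDGFRB (-0.32) and TUBB3 (-0.15) were lower, and HBB (0.16) was higher. The part of these markers in the results was not tested. In the LSD2/eGFP/Flag arrays, where 57.0% of all genes were called, 5 of 6 neuronal markers were called, NEFM (6.74), NEFL (3.25) and SYP (0.46) higher and MAP2 (-0.79) and TUBB3 (-0.68) lower. Of 10 luminal markers, GATA3 (2.00), XBP1 (0.77) and ERBB2 (0.31) were higher and KRT8 (-2.90), KRT18 (-1.83) and TFF1 (-0.72) lower. Of 6 fibroblast and endothelial markers, LUM (1.94) and CDH5 (0.26) were higher and VWF (-0.21) lower, and limma called 0 of the basal and blood markers (0 at an unadjusted p under 0.05) there. CDH1, the gene of E-cadherin, lay between percentiles 2.15 and 13.7 of its own array on all 12 arrays.

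The measured genes covered the whole brightness range of the arrays. Because the values carry no detection calls, brightness is given as the percentile of a gene's log2 value among the 11963 genes of its own array, which describes a probe set and does not rank one gene's transcript number against another's. TJP1, DSP, DSG2 and CTNNA1 lay above percentile 80 on all 12 arrays. By contrast, 8 genes lay below percentile 33.3 on all 12: CLDN1, DSG3, PPL, ESRP1, EHF, GRHL2, RAB25 and PRSS8. A further 11 genes lay below that percentile on every array of 1, 2 or 3 groups, and 13 did so in no group. For dim genes the differences below may be understated.

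**Figure D1:**
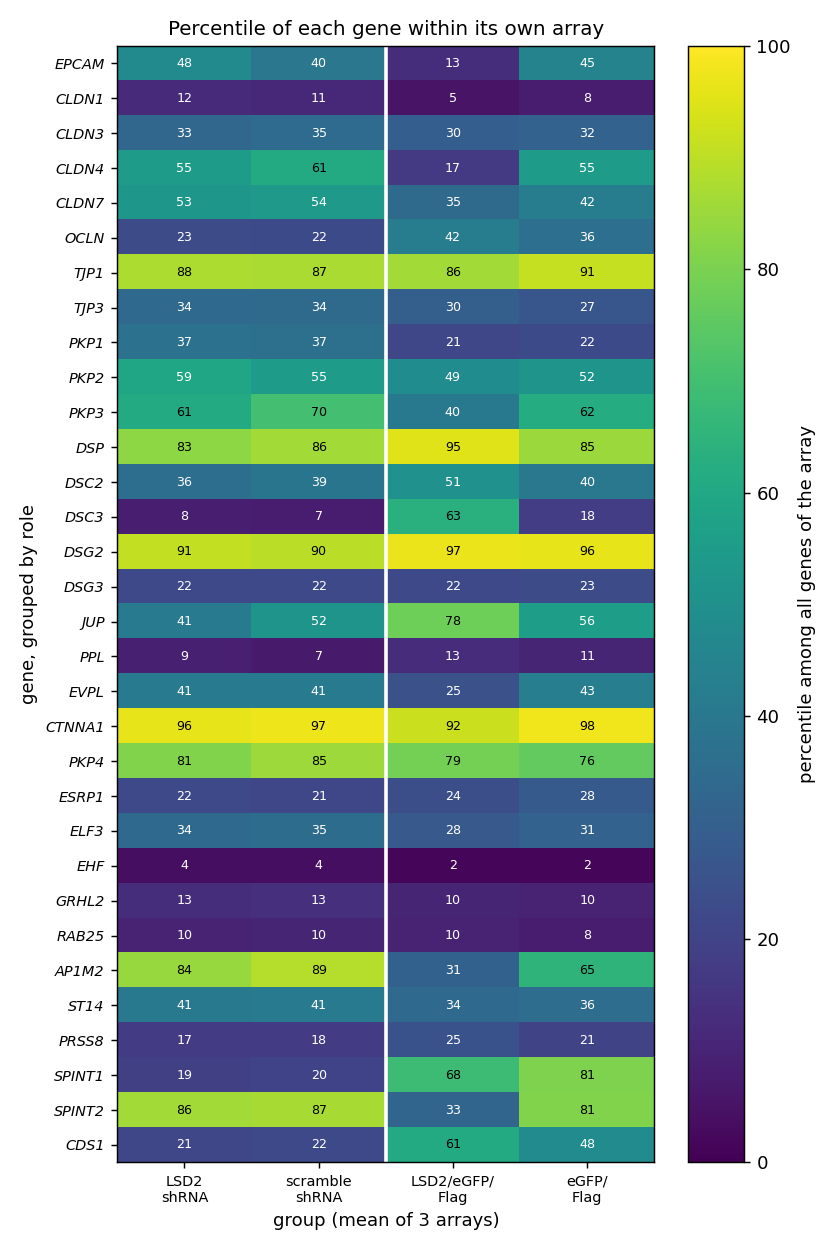
Percentile of the 32 measured genes within their own array (0 to 100, colour and printed number), as the mean of the 3 arrays of each group (columns), with genes grouped by role (rows) and a white line between the shRNA and the vector arrays. Single SPINT2 arrays lie between percentiles 29.6 and 34.5 in the LSD2/eGFP/Flag group and between 79.3 and 83.1 in the eGFP/Flag group, and single DSC3 arrays between 63.0 and 63.7 in the LSD2/eGFP/Flag group and between 15.4 and 21.0 in the eGFP/Flag group.

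The first comparison asks how these genes differed when LSD2 was targeted by the shRNA. Of the 32 genes, 5 passed the test (limma, Benjamini-Hochberg adjusted p under 0.05 over all 11963 genes). EPCAM was higher and CLDN4, PKP3, CTNNA1 and PKP4 were lower in LSD2 shRNA cells. Over all genes 10.5% were called, 5.0% higher and 5.53% lower, so 5 of 32 (15.6%) is a share not far from the background. The median difference of the 32 genes was -0.05 log2 units, against -0.01 over all genes, and the median size was 0.10 for both. The 3 arrays of a group did not overlap those of the other for 9 of the 32 genes, 3 higher and 6 lower, where 28.3% of all genes did not overlap (13.5% higher and 14.9% lower).

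EPCAM encodes a surface adhesion molecule of epithelial cells and carcinomas. Its log2 signal was 7.14, 6.84 and 7.10 in LSD2 shRNA arrays, against 6.52, 6.39 and 6.48 in scramble arrays. The groups did not overlap, and the difference was 0.57 ± 0.13 log2 units, or 1.48-fold (SE, limma adjusted p = 0.0125). This call was lost without LSD2 shRNA replicate 1 (limma adjusted p = 0.0634) and without scramble replicate 2 (0.0507).

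Among the tight junction genes, CLDN4, a claudin that limits the passage of ions between cells, was the only one called of 7 measured. It measured 7.52, 7.76 and 7.63 in LSD2 shRNA arrays, against 7.99, 8.16 and 8.07 in scramble arrays. Each LSD2 shRNA array lay below each scramble array, by -0.44 ± 0.09 log2 units on average (SE, limma adjusted p = 0.00764). The other 6 tight junction genes had differences between -0.14 and 0.15.

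Among the desmosome genes, PKP3, a plakophilin of the desmosomal plaque, was the only one called of 11. It measured 8.03, 8.13 and 7.99 in LSD2 shRNA arrays, against 8.71, 8.77 and 8.74 in scramble arrays. The groups were well apart relative to their spread, and the difference was -0.69 ± 0.09 log2 units, 1.61-fold lower (SE, limma adjusted p = 5.2e-04). A dimmer probe set of PKP3 gave -0.42. The calls of PKP3 and CLDN4 held in every refit that left out 1 array or changed the normalization or the fit. JUP, which encodes plakoglobin, had the largest difference of the genes not called. It measured 6.43, 7.28 and 5.99 in LSD2 shRNA arrays, against 7.42, 8.19 and 6.52 in scramble arrays. Each LSD2 shRNA array lay below the scramble array of the same number, though the groups overlapped. The difference was -0.81 ± 0.38, and the limma adjusted p was 0.226 in a fit that did not pair arrays by number. Without scramble replicate 3 it was -1.24 (limma adjusted p = 0.0465), and without scramble replicate 2 it was -0.41 (0.651).

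The catenin-family genes CTNNA1 and PKP4 were both called lower, and neither call held in every refit. CTNNA1, alpha-catenin, which ties the cadherin complex to actin, measured 11.50, 11.59 and 11.50 in LSD2 shRNA arrays, against 11.83, 12.01 and 11.71 in scramble arrays. Its arrays did not overlap, and the difference was -0.32 ± 0.08 (SE, limma adjusted p = 0.0187). Its call was lost without LSD2 shRNA replicate 1 (0.0703) or 3 (0.0611), without scramble replicate 1 (0.0576) or 2 (0.0816), and in a limma fit of the shRNA arrays alone (adjusted p = 0.0565). PKP4, an armadillo protein of adherens junctions and desmosomes, measured 9.66, 9.42 and 9.71 in LSD2 shRNA arrays, against 9.96, 9.82 and 10.19 in scramble arrays. Its groups did not overlap, and the difference was -0.39 ± 0.11 (SE, limma adjusted p = 0.0404). The other 3 probe sets of PKP4 ran the same way, at -0.79, -0.58 and -0.58. The limma adjusted p of PKP4 was over the threshold without LSD2 shRNA replicate 1 (0.0795) or 2 (0.148), without scramble replicate 1 (0.0957) or 3 (0.146), without LSD2/eGFP/Flag replicate 1 (0.0553) or 3 (0.0541), with the arrays shifted to equal medians (0.103), in the shRNA arrays alone (0.0781) and with replicate number as a block (0.0602). The count of 5 called genes fell to 2 without LSD2 shRNA replicate 1 and to 3 without scramble replicate 1 or scramble replicate 2.

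The remaining groups of genes held no called member in this comparison. AP1M2, a subunit of the adaptor that sorts proteins to the basolateral membrane, came closest. It measured 9.91, 10.10 and 9.68 in LSD2 shRNA arrays, against 10.38, 10.50 and 10.17 in scramble arrays. The groups did not overlap, yet the difference of -0.46 ± 0.14 had a limma adjusted p of 0.063, a value that ranged from 0.0135 to 0.217 over the alternatives. The splicing regulator ESRP1 differed by 0.06, the transcription factors ELF3, EHF and GRHL2 by -0.10 to -0.04, and the lipid enzyme CDS1 by -0.07. The membrane proteases ST14 and PRSS8 and the protease inhibitors SPINT1 and SPINT2 differed by -0.07 to -0.03. At an unadjusted limma p under 0.05, 1 gene was higher and 5 were lower among the 32, where 1316 and 1439 of all 11963 genes were.

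**Figure D2:**
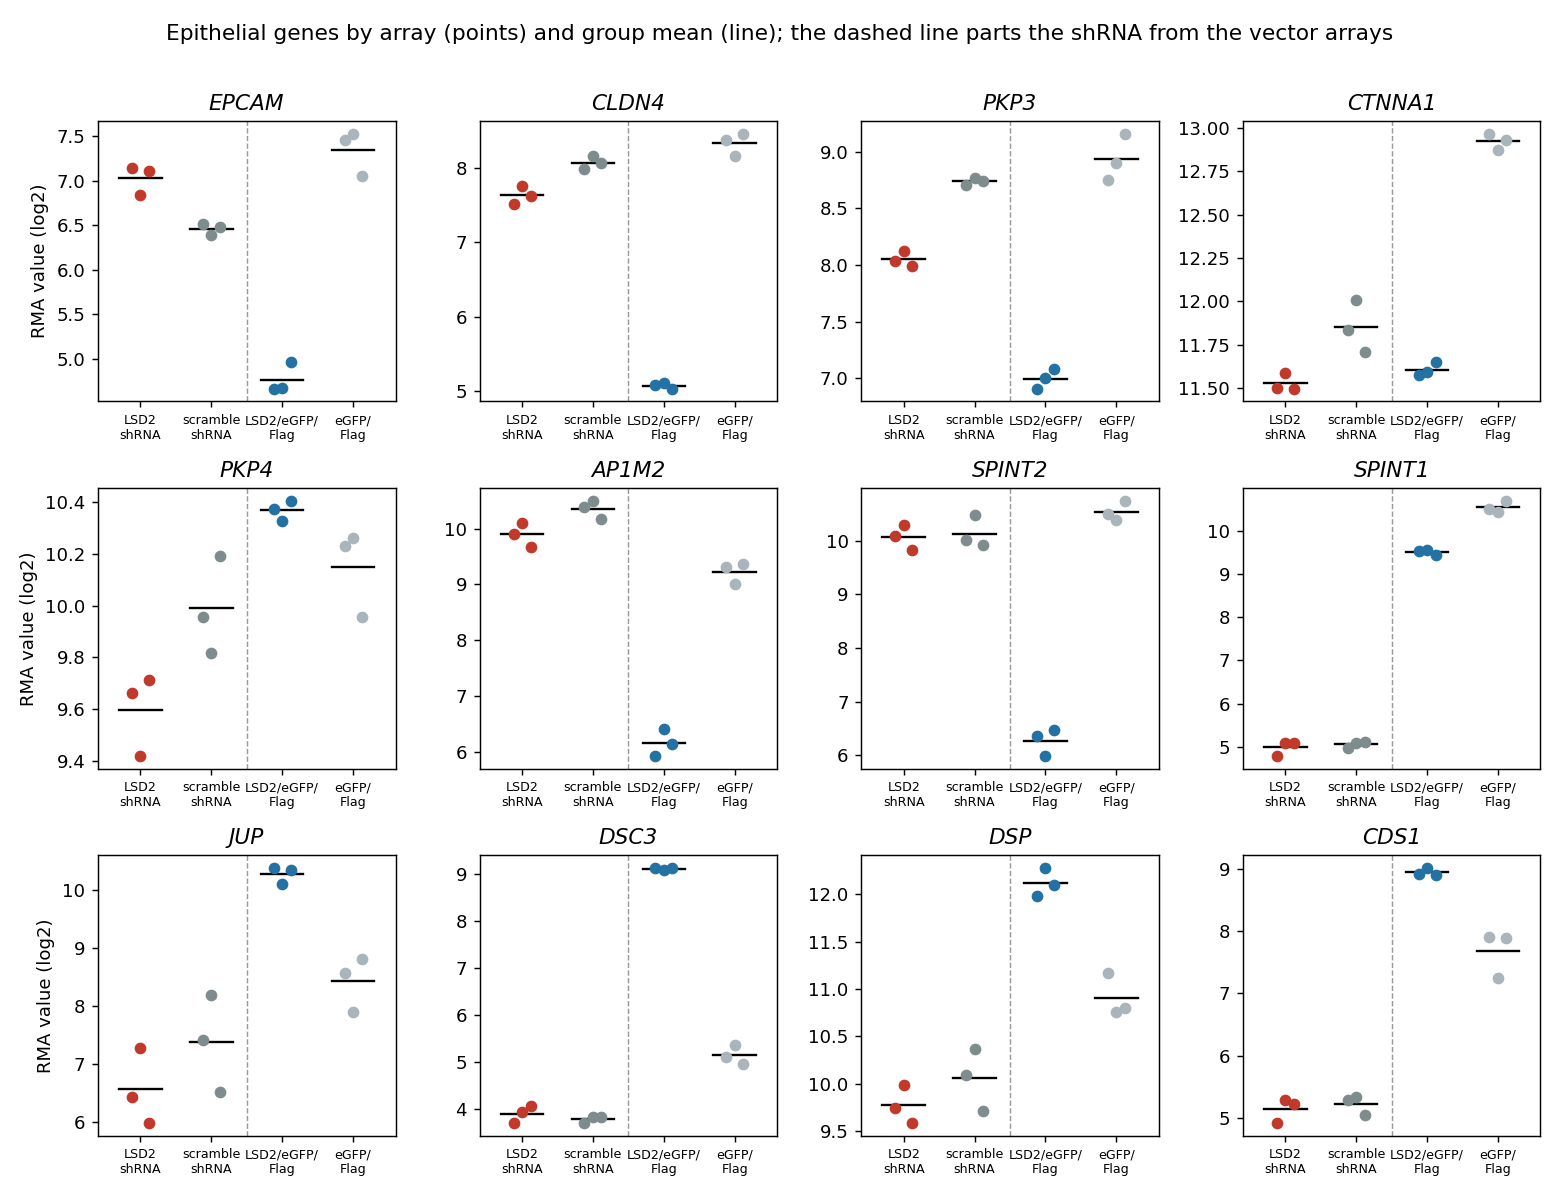
Log2 signal (RMA value) of 12 of the measured genes in each array (points), by group, with the group mean as a black line and a dashed line between the shRNA and the vector arrays; each panel has its own axis. EPCAM lies at 4.67 to 4.96 in the LSD2/eGFP/Flag arrays and at 7.05 to 7.53 in the eGFP/Flag arrays, and at 6.84 to 7.14 in the LSD2 shRNA arrays and 6.39 to 6.52 in the scramble arrays.

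The second comparison asks how the genes differed in the arrays labelled as cells with the LSD2/eGFP/Flag vector. Of the 32 genes, 21 were called, 10 higher and 11 lower in the arrays labelled LSD2/eGFP/Flag (limma, Benjamini-Hochberg adjusted p under 0.05). Over all genes 57.0% were called, 30.9% higher and 26.1% lower, so 21 of 32 (65.6%) is again not far from the background. By size, 13 of the 32 genes (40.6%) were called with a difference of at least 1 log2 unit, 5 higher and 8 lower, against 18.3% of all genes (9.76% higher and 8.49% lower). The genes did not move one way: their median difference was -0.05 log2 units, against 0.01 over all genes, while the median size was 0.49, against 0.31. The groups did not overlap for 23 of the 32 genes, 11 higher and 12 lower, where 61.1% of all genes did not overlap (32.7% higher and 28.4% lower). All 9 line markers given above fell in the same arrays, against the label of the line, and their part in these differences was not tested. In bulk samples, fewer cells of a type and less RNA per cell cannot be told apart.

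EPCAM had the opposite direction to that in the shRNA comparison. It measured 4.67, 4.67 and 4.96 in LSD2/eGFP/Flag arrays, against 7.46, 7.53 and 7.05 in eGFP/Flag arrays. The difference was -2.58 ± 0.13 log2 units, 5.98-fold lower (SE, limma adjusted p = 8.6e-10). In the LSD2/eGFP/Flag arrays EPCAM lay at percentiles 11.7 to 15.6, where a level close to background cannot be told from none.

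Among the 7 measured tight junction genes, 5 were called (71.4%, against 57.0% of all genes), 2 higher and 3 lower. CLDN4 measured 5.08, 5.10 and 5.03 in LSD2/eGFP/Flag arrays, against 8.38, 8.16 and 8.46 in eGFP/Flag arrays. Its difference of -3.27 ± 0.09 log2 units, 9.61-fold lower (SE, limma adjusted p = 2.0e-12), was the largest of the group. In the LSD2/eGFP/Flag arrays CLDN4 lay at percentiles 16.5 to 17.6, where a level close to background cannot be told from none. CLDN7, another claudin, measured 6.48, 6.34 and 6.60 in LSD2/eGFP/Flag arrays, against 6.90, 6.97 and 7.35 in eGFP/Flag arrays. That difference of -0.60 ± 0.20 (SE, limma adjusted p = 0.0218) lost its call without LSD2/eGFP/Flag replicate 2 (0.0709) or eGFP/Flag replicate 3 (0.0979). TJP1, the scaffold protein ZO-1, measured 10.76, 11.16 and 10.94 in LSD2/eGFP/Flag arrays, against 11.78, 11.49 and 11.42 in eGFP/Flag arrays. Its second probe set gave the same difference, -0.61, as the first, whose SE was 0.11 (limma adjusted p = 3.5e-04).

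The rising tight junction genes were OCLN and TJP3. OCLN, occludin, a membrane protein of the junction strands, measured 7.29, 7.19 and 7.14 in LSD2/eGFP/Flag arrays, against 6.82, 6.24 and 6.57 in eGFP/Flag arrays. The difference was 0.66 ± 0.11 (SE, limma adjusted p = 2.0e-04). TJP3, the scaffold ZO-3, measured 6.22, 5.95 and 6.06 in LSD2/eGFP/Flag arrays, against 5.71, 5.77 and 5.78 in eGFP/Flag arrays. Its difference of 0.33 ± 0.08 had a limma adjusted p of 0.0032, at percentiles 26.5 to 31.9, so that both groups are dim. With the arrays shifted to equal medians, which moves the median of all genes to -0.12, the difference of TJP3 fell to 0.19 and lost its call (limma adjusted p = 0.0839). CLDN1 and CLDN3 were not called, at -0.24 and -0.07.

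Of the 11 desmosome genes 7 were called (63.6%, near the 57.0% of all genes), 5 higher and 2 lower, where 30.9% and 26.1% of all genes were. The genes called higher encode cadherins and plaque proteins, and the call of DSG2 did not hold in every refit. DSC3, desmocollin 3, measured 9.12, 9.08 and 9.12 in LSD2/eGFP/Flag arrays, against 5.10, 5.36 and 4.96 in eGFP/Flag arrays. This was the largest rise of all 32 genes, at 3.97 ± 0.11 log2 units or 15.6-fold (SE, limma adjusted p = 1.6e-12), and a second probe set gave 3.57. DSC2, desmocollin 2, measured 8.12, 7.98 and 8.04 in LSD2/eGFP/Flag arrays, against 7.11, 6.64 and 6.85 in eGFP/Flag arrays. It differed by 1.18 ± 0.15 (SE, limma adjusted p = 1.5e-05), and by 1.27 in a second probe set. DSP, desmoplakin, which binds keratin filaments, measured 11.98, 12.28 and 12.09 in LSD2/eGFP/Flag arrays, against 11.17, 10.75 and 10.80 in eGFP/Flag arrays. Its difference was 1.21 ± 0.16 (SE, limma adjusted p = 2.0e-05).

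JUP, plakoglobin, measured 10.38, 10.10 and 10.35 in LSD2/eGFP/Flag arrays, against 8.57, 7.90 and 8.81 in eGFP/Flag arrays. The groups did not overlap, at 1.85 ± 0.38 log2 units or 3.6-fold (SE, limma adjusted p = 8.8e-04). DSG2, desmoglein 2, measured 12.67, 12.51 and 12.60 in LSD2/eGFP/Flag arrays, against 12.41, 12.36 and 12.40 in eGFP/Flag arrays. Its difference of 0.20 ± 0.07 (SE, limma adjusted p = 0.0296) is small, and the call was lost without LSD2/eGFP/Flag replicate 1 (0.112) or 3 (0.0679), without eGFP/Flag replicate 2 (0.0809), in the vector arrays alone (0.0507) and with equal medians, where the difference was 0.07 (0.431).

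The desmosome genes that fell were PKP3 and EVPL. PKP3 measured 6.91, 7.0 and 7.08 in LSD2/eGFP/Flag arrays, against 8.75, 8.90 and 9.16 in eGFP/Flag arrays. The difference was -1.94 ± 0.09, 3.84-fold lower (SE, limma adjusted p = 7.3e-10), while a dimmer probe set gave -0.75. EVPL, envoplakin, a linker to the cornified envelope, measured 5.60, 5.69 and 5.68 in LSD2/eGFP/Flag arrays, against 7.29, 7.02 and 7.05 in eGFP/Flag arrays, and differed by -1.47 ± 0.08 (SE, limma adjusted p = 1.8e-09). PKP1, PKP2, DSG3 and PPL were not called, with differences from -0.18 to 0.17. Within the desmosome, therefore, a plakophilin and an envelope linker fell in the arrays where desmocollins, desmoplakin and plakoglobin rose.

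**Figure D3:**
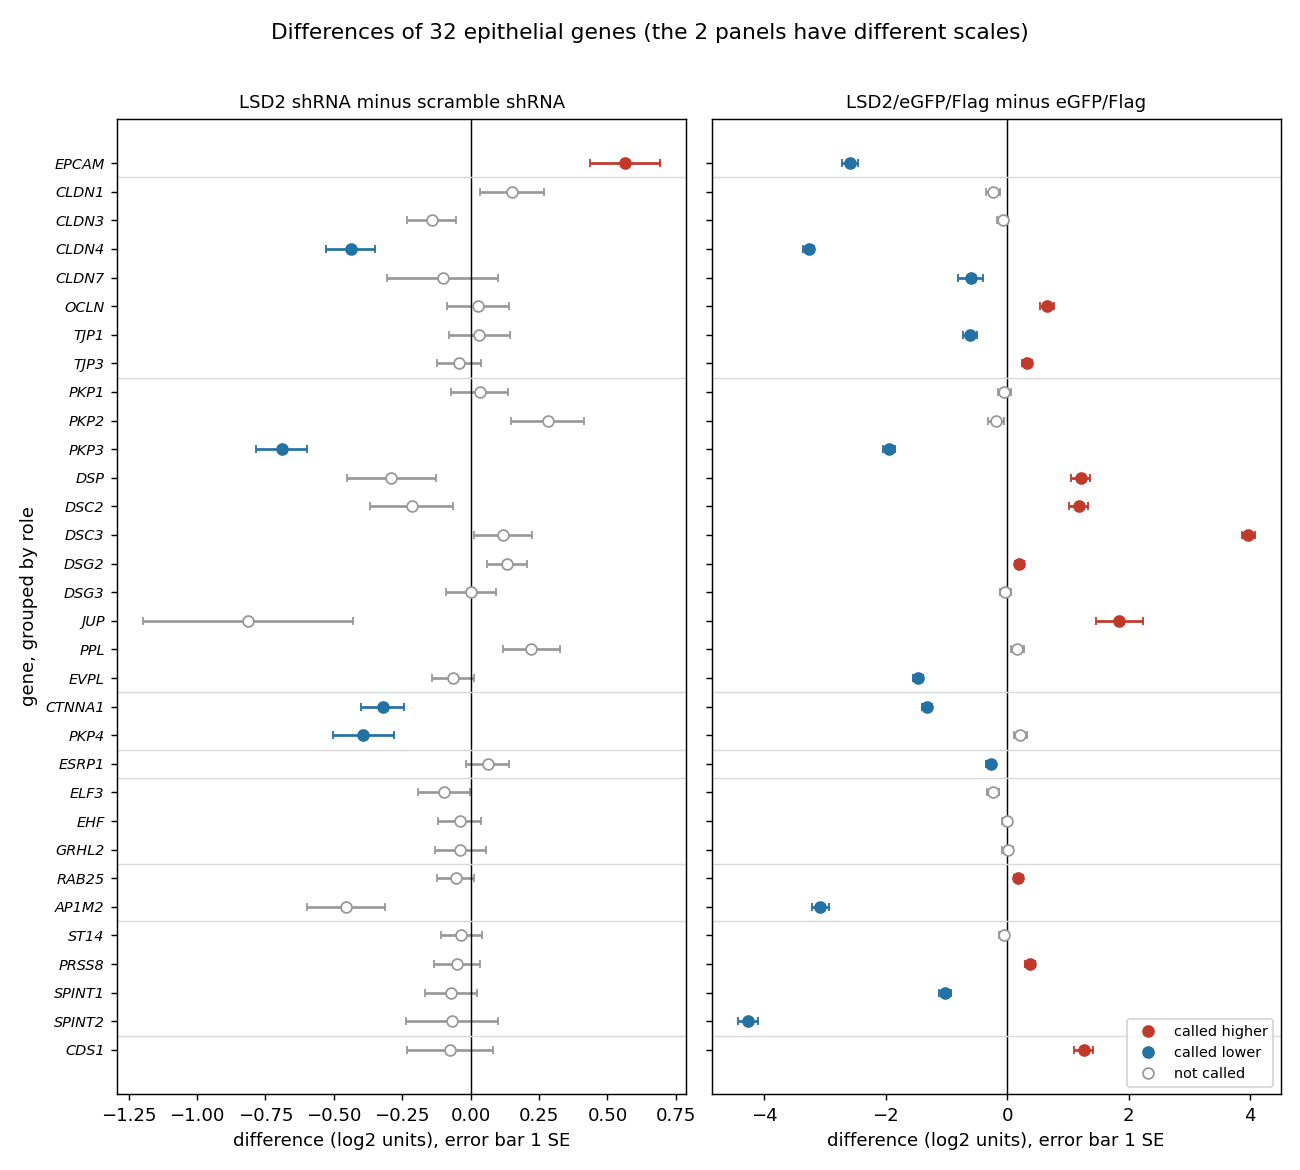
Difference in log2 signal for each measured gene (rows) with its standard error (bars), LSD2 shRNA minus scramble shRNA on the left and LSD2/eGFP/Flag minus eGFP/Flag on the right, on different scales, with called genes filled. In the vector comparison the differences run from -4.27 for SPINT2 to 3.97 for DSC3, and in the shRNA comparison from -0.81 for JUP to 0.57 for EPCAM.

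Of these catenin-family genes, CTNNA1 fell and PKP4 was not called. CTNNA1 measured 11.57, 11.59 and 11.65 in LSD2/eGFP/Flag arrays, against 12.97, 12.88 and 12.93 in eGFP/Flag arrays. It differed by -1.32 ± 0.08 (SE, limma adjusted p = 5.5e-09), and its other probe sets gave -1.35, -1.45 and, for the dimmest, -0.24. PKP4 measured 10.37, 10.33 and 10.41 in LSD2/eGFP/Flag arrays, against 10.23, 10.26 and 9.96 in eGFP/Flag arrays. These did not overlap, but the difference of 0.22 ± 0.11 had a limma adjusted p of 0.114. The other probe sets of PKP4 gave 0.25, 0.06 and, for the dimmest, 0.91. With the mean of all its probe sets PKP4 was called higher, at 0.36 (limma adjusted p = 0.0224).

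The regulators of the epithelial program were mostly dim, and for ESRP1, EHF and GRHL2, below percentile 33.3 on all 12 arrays, a small difference does not show that the transcript was unchanged. ESRP1, a splicing factor of epithelial cells, measured 5.70, 5.58 and 5.53 in LSD2/eGFP/Flag arrays, against 5.83, 5.84 and 5.96 in eGFP/Flag arrays. The difference was -0.27 ± 0.08 (SE, limma adjusted p = 0.00891), at percentiles 22.9 to 28.8, so that both groups are dim. Of the 3 epithelial transcription factors, ELF3 (ETS family) differed by -0.23 (limma adjusted p = 0.0545, and 0.00632 with equal medians), EHF (ETS family) by -0.01 and GRHL2 (grainyhead family) by 0.01, and limma called 0 of them (1 at an unadjusted p under 0.05).

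The genes of vesicle traffic went opposite ways. AP1M2 measured 5.93, 6.41 and 6.14 in LSD2/eGFP/Flag arrays, against 9.31, 9.01 and 9.37 in eGFP/Flag arrays. It differed by -3.07 ± 0.14 log2 units, 8.41-fold lower (SE, limma adjusted p = 4.9e-10), and a second probe set gave -2.88. RAB25, a small GTPase of recycling endosomes in epithelial cells, measured 4.45, 4.52 and 4.61 in LSD2/eGFP/Flag arrays, against 4.34, 4.30 and 4.37 in eGFP/Flag arrays. Its difference of 0.19 ± 0.07 (SE, limma adjusted p = 0.03) was at percentiles 7.1 to 10.9. That call was lost without eGFP/Flag replicate 1 (0.0593) or 2 (0.0876), without LSD2/eGFP/Flag replicate 2 (0.0553) or 3 (0.124), in the vector arrays alone (0.0708) and with equal medians, where the difference was 0.05 (0.576).

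The membrane proteases and their inhibitors held the largest fall. SPINT2, an inhibitor of membrane serine proteases (HAI-2), measured 6.36, 5.99 and 6.46 in LSD2/eGFP/Flag arrays, against 10.49, 10.39 and 10.74 in eGFP/Flag arrays. The difference was -4.27 ± 0.17 log2 units, 19.2-fold lower (SE, limma adjusted p = 8.2e-11). SPINT1, its paralog (HAI-1), measured 9.53, 9.55 and 9.45 in LSD2/eGFP/Flag arrays, against 10.49, 10.43 and 10.69 in eGFP/Flag arrays, a difference of -1.02 ± 0.09 (SE, limma adjusted p = 4.9e-07). Of the proteases, PRSS8, prostasin, measured 5.73, 5.64 and 5.70 in LSD2/eGFP/Flag arrays, against 5.43, 5.42 and 5.11 in eGFP/Flag arrays. It rose by 0.37 ± 0.08 (SE, limma adjusted p = 0.00147), or by 0.24 with the arrays shifted to equal medians (0.0419), and ST14, matriptase, differed by -0.06 (limma adjusted p = 0.567). CDS1, an enzyme of CDP-diacylglycerol synthesis, measured 8.91, 9.01 and 8.90 in LSD2/eGFP/Flag arrays, against 7.90, 7.25 and 7.89 in eGFP/Flag arrays. It differed by 1.26 ± 0.16 (SE, limma adjusted p = 9.8e-06), but by 0.07 in a second, dimmer probe set.

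The third comparison sets the vector difference (LSD2/eGFP/Flag minus eGFP/Flag arrays) against the shRNA difference (LSD2 shRNA minus scramble arrays), and both are called effects only in that sense. The constructs share no control arrays, and by their labels they act on LSD2 in opposite directions. Limma called the difference of effects for 19 of the 32 genes, 9 higher and 10 lower in the vector comparison, where 50.4% of all genes were called (28.0% higher and 22.4% lower). Both comparisons called 4 of the 32 genes, against 8.02% of all genes. EPCAM was called in opposite directions, with a difference of effects of -3.15 log2 units (limma adjusted p = 7.5e-09). CLDN4, PKP3 and CTNNA1 were called lower in both comparisons, and fell further in the vector comparison, by -2.83, -1.25 and -1.0 log2 units more (limma adjusted p = 6.1e-10, 3.4e-06 and 4.8e-06). PKP4, called lower only under the shRNA, had a difference of effects of 0.61 (limma adjusted p = 0.00519). Of the genes called in the vector comparison and not in the shRNA comparison, 14 of 17 also differed between the effects, and CLDN7, DSG2 and RAB25 did not pass the test. These 17 were picked by the calls of the same fit, so a high share was partly built in and adds no support. The call of ESRP1 in this contrast was lost without scramble replicate 2 (limma adjusted p = 0.0611), without LSD2/eGFP/Flag replicate 3 (0.0574), without eGFP/Flag replicate 3 (0.0521) and with array weights (0.0567). With the arrays shifted to equal medians the calls of TJP3 (limma adjusted p = 0.221), PKP4 (0.0559) and PRSS8 (0.132) were lost. At 10 of the 32 genes neither comparison made a call. Over all genes the shRNA comparison called 10.5%, the vector comparison 57.0% and both of them 8.02%.

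For the promoters of these genes, the RefSeq table (GRCh38.p14) held 36 entries for 22 of the 32 measured genes. The 250 bases before each gene start were searched for CAGGTG and its reverse complement CACCTG, the E-box letters that ZEB and SNAI repressors bind. The letters stood in 14 of 36 member promoters (38.9%), against 6143 of 35116 promoters of the table (17.5%). Counted by gene, they stood in at least 1 window of 13 of 22 genes (59.1%), against 5635 of 27305 genes of the table (20.6%), and genes have unequal numbers of windows. No promoter entry was available for EPCAM, PKP3, EVPL, ESRP1 and SPINT2, which were called lower in LSD2/eGFP/Flag arrays, or for PRSS8, called higher. Among genes with an entry, the letters stood before 4 of 6 called lower in LSD2/eGFP/Flag arrays, 8 of 9 called higher and 1 of 7 not called. By window these were 4 of 14, 9 of 13 and 1 of 9, and CTNNA1 and TJP1 alone supply 8 of the 14 windows of genes called lower. Some windows of 1 gene overlap, and no test was made of these shares. A match does not show binding, and a window without the letters says nothing of the repressors. The 5 promoters below are shown because their genes had differences over 1 log2 unit in both directions, with and without the letters, which are in capitals. AP1M2 (chr19:10587313-10587562, minus strand) fell and has 3 matches, starting 57, 27 and 15 bases before the gene start. CLDN4 (chr7:73830746-73830995, plus strand) fell and has 0. DSC3 (chr18:31042743-31042992, minus strand) rose and has 0. DSP (chr6:7541421-7541670, plus strand) rose and has 2, and JUP (chr17:41785977-41786226, minus strand; 1 of 2 windows of this gene) rose and has 2.
AP1M2 promoter: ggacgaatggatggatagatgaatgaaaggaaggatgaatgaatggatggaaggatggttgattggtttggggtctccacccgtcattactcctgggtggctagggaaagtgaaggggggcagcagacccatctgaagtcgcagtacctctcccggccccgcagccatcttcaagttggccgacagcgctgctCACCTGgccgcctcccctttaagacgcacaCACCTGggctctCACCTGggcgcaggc
CLDN4 promoter: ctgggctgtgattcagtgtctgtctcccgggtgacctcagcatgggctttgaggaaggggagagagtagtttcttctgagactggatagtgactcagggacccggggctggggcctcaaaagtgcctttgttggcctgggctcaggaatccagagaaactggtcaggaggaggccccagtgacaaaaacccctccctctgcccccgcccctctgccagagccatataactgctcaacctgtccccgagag
DSC3 promoter: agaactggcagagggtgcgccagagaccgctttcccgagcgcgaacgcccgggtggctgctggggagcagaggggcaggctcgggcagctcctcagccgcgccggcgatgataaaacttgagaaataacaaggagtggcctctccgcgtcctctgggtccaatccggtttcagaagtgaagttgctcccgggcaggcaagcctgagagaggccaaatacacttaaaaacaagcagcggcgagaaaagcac
DSP promoter: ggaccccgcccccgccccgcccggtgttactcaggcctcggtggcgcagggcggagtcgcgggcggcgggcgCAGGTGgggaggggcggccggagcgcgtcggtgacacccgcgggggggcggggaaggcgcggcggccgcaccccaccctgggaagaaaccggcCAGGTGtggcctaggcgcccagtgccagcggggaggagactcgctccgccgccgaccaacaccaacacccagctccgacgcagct
JUP promoter: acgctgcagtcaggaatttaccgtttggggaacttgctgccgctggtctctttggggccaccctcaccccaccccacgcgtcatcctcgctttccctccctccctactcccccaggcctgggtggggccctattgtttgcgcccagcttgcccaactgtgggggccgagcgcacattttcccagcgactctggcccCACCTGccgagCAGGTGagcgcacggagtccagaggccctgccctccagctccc
Matching letters therefore stand before genes that fell and genes that rose.

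Repressors of the epithelial state and mesenchymal factors were also measured, 9 of 10 listed. ZEB1, a repressor of epithelial genes, was the only one called in the shRNA comparison, at 0.37 log2 units (limma adjusted p = 0.0392). In the vector comparison 5 of the 9 were called (55.6%, close to the 57.0% of all genes), 4 higher and 1 lower. ZEB1 was the lower one, at -1.08 (limma adjusted p = 7.7e-07). TWIST1, a mesenchymal transcription factor, measured 9.40, 9.19 and 9.35 in LSD2/eGFP/Flag arrays, against 3.44, 4.06 and 3.21 in eGFP/Flag arrays. TCF4 and SNAI2, also mesenchymal regulators, were higher by 1.96 and 0.99. Repressors and mesenchymal factors thus ran in both directions, in the arrays where line markers also fell.

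Other junction genes also ran in both directions. Of 25 measured tight junction and polarity genes (35 listed), the shRNA comparison called 5 (20%, against 10.5% of all genes), 1 higher and 4 lower, and the vector comparison called 10 (40%, below the 57.0% of all genes), 7 higher and 3 lower. In LSD2 shRNA cells PARD6B (-0.87), LSR (-0.73), PRKCZ (-0.60) and CXADR (-0.49) were lower and CLDN16 (0.26) was higher. PRKCZ, an atypical protein kinase C of cell polarity, and CXADR, an adhesion receptor of tight junctions, were higher in the vector comparison, by 1.47 and 1.32, as was JAM3, a junctional adhesion molecule, by 3.71. PALS1, PARD3 and MPDZ fell in that comparison, by -0.74, -0.52 and -0.35. Of 14 measured other adherens junction genes, the shRNA comparison called NECTIN3 (0.69) and CTNNB1 (0.46) higher and CDH3, P-cadherin, lower (-0.73), together 21.4%. The vector comparison called 42.9% of them, with CDH3 (0.55), CTNNB1 (0.47) and ARVCF (0.22) higher and CTNNAL1 (-0.87), NECTIN2 (-0.59) and VCL (-0.41) lower. Of 4 other desmosome genes, PERP was higher under the shRNA (0.43) and lower in the vector comparison (-0.83), and PLEC was lower there too (-1.57).

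**Figure D4:**
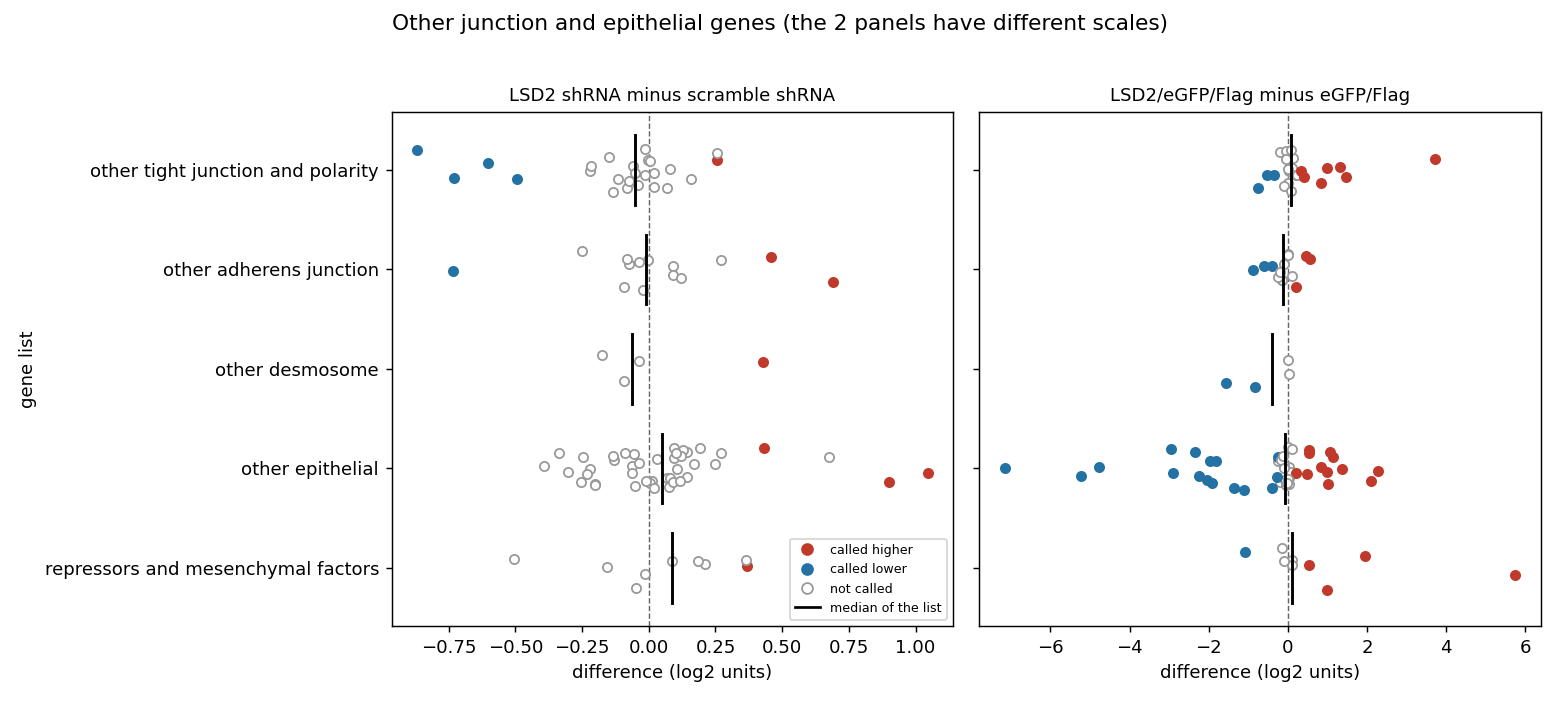
Log2 differences of other junction and epithelial genes (points) by list (rows), with the shRNA comparison on the left and the vector comparison on the right, whose axes differ. Filled points were called, and the black line is the median of the list: for the 44 other epithelial genes it is 0.05 in the shRNA comparison and -0.08 in the vector comparison.

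Of 44 measured other epithelial genes (56 listed), limma called 3 in the shRNA comparison (6.82%, below the 10.5% of all genes). They were KLF4 (1.05), GALNT3 (0.90) and MYO6 (0.43), all higher, where 5.0% of all genes were called higher. At an unadjusted limma p under 0.05, 4 were higher and 6 lower, where 1316 and 1439 of all 11963 genes were. In the vector comparison 28 were called (63.6%, against 57.0% of all genes), 12 higher and 16 lower. All 3 genes called in the shRNA comparison were called lower there, KLF4 by -2.04, GALNT3 by -2.34 and MYO6 by -0.40. The largest rises were HOOK1 (2.28), ERBB3 (2.11) and BIK (1.37). The largest falls were the keratin genes KRT7 (-7.16) and KRT19 (-5.22) and AGR2 (-4.76), whose products are made in glandular epithelia. As among the junction genes, the vector differences ran both ways and reached sizes that the shRNA comparison did not.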

How the data were processed

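Total RNA from 12 samples labelled as MDA-MB-231 cells was measured on Affymetrix arrays, 3 per group. The deposited log2 values of 22277 probe sets were made by RMA (background correction, quantile normalization, probe summary), per the submitters' processing notes. Which software and version ran it is not given in the sources used here. Precision is limited by the number of arrays. Names came from the platform's annotation and a RefSeq gene table: of the probe sets, 19064 name 1 gene and were used, 1043 name several genes, 2108 name none, and 62 are controls. The brightest probe set over all arrays was taken per gene. The 36 genes and all lists were chosen with earlier results of these data known. Every measured listed gene is named, as are up to the 3 largest called differences per direction of each list of other junction, epithelial and mesenchymal genes. The marker genes given with values, the 12 plotted genes and the 5 promoters shown were picked after their values were seen.

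Deposited medians were 6.65 to 6.72 in the shRNA arrays and 7.03 to 7.18 in the vector arrays, with minima of 1.94 to 2.08 and 3.03 to 3.17. Tests used limma 3.58.1 under R 4.3.3 (lmFit and eBayes, 4 group means, all 12 arrays in 1 fit, 8 residual degrees of freedom), with Benjamini-Hochberg adjustment over 11963 genes, two-sided tests and a threshold of 0.05. Errors are standard errors of that fit, or SD where stated. Same-numbered replicates were checked for pairing by correlating deviations from group means. For replicates 1, 2 and 3, r was 0.0204, 0.508 and 0.446 in the shRNA arrays and -0.142, 0.175 and 0.182 in the vector arrays. Between shRNA replicates 2 and 3 of different groups it was -0.457 and -0.482. The shRNA replicates 2 and 3 thus shared variation by number, which was not seen for replicate 1 and was weaker in the vector arrays. The main fit used no block, which leaves this shared variation in the error of the shRNA tests. Fits were tested on simulated data. Promoters came from RefSeq; protein sequences were not used here. Alternatives were a block, separate fits, other normalizations, filters, weights, thresholds and leaving out each array.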

Additional observations from a re-analysis of the deposited data

Results flagged for a closer look

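The vector difference (LSD2/eGFP/Flag minus eGFP/Flag arrays) minus the shRNA difference (LSD2 shRNA minus scramble arrays) passed a limma test of the difference itself for 19 genes, in log2 units, positive when the vector difference was the higher. They were -3.15 for EPCAM, -2.83 for CLDN4, 0.63 for OCLN, -0.64 for TJP1 and 0.37 for TJP3. Among desmosome genes they were -1.25 for PKP3, 1.5 for DSP, 1.39 for DSC2, 3.85 for DSC3, 2.66 for JUP and -1.40 for EVPL. For the catenins they were -1.0 for CTNNA1 and 0.61 for PKP4. For ESRP1 it was -0.33, for AP1M2 -2.62, for PRSS8 0.42, for SPINT1 -0.95, for SPINT2 -4.20 and for CDS1 1.34. The constructs are labelled as acting in opposite directions, and EPCAM was the only one of the 32 genes called in both comparisons with opposite directions. The line markers fell in the same LSD2/eGFP/Flag arrays, and their part in these differences was not tested.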

How the results depend on the processing

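No call changed direction under any alternative. Of the 722 gene-by-setting values in each comparison, 691 (shRNA) and 692 (vector) stayed on their side of the threshold, 22 and 22 lost the call, and 9 and 8 gained one; of 690 for the difference of effects, 658 stayed, 12 lost the call and 20 gained one. Among those that stayed, 26 (shRNA), 16 (vector) and 18 (difference of effects) values that were not called changed sign. In the shRNA comparison the 5 called genes became 3 in a fit of the shRNA arrays alone, 2 at an adjusted p under 0.01 and 2 with a minimum difference of 0.5 log2 units, while leaving out 1 array gave 2 to 6. Over all genes that comparison called 1260, which became 2350 with array weights, 564 at an adjusted p under 0.01, 494 with a minimum of 0.5 log2 units, and 752 to 1347 without 1 array. In the vector comparison all genes called were 6824, 4422 with a minimum of 0.5 log2 units and 6411 to 6818 without 1 array. The 21 listed genes became 16 with that minimum, 18 at an adjusted p under 0.01 and 19 to 22 without 1 array. For the difference of effects the 19 became 16 with that minimum, 17 at an adjusted p under 0.01 and 18 to 21 without 1 array. The 6029 over all genes became 5681 to 5980 without 1 array. The cause of these moves was not tested, except that stricter thresholds call fewer genes by construction. With replicate number as 1 block over all 12 arrays, the shRNA comparison called 4 of the listed genes and 1071 of all genes. The vector comparison then called 21 and 6691, and the difference of effects 19 and 5871. That block gives the shRNA and the vector arrays the same replicate effect, and pairing within the shRNA arrays alone was not fitted. With the arrays shifted to equal medians, the vector calls of TJP3, DSG2 and RAB25 were lost, and ELF3, CLDN1 and ST14 gained one. Signals near background, such as those of the 8 genes dim on every array, limit what these arrays can show.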

Other observations

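The level of a few listed genes also differed between the shRNA arrays and the vector arrays, which share no control and appear to have been normalized separately, so these are values without a test. SPINT1 lay at percentiles 67.5 to 69.0 in LSD2/eGFP/Flag arrays and 79.8 to 82.5 in eGFP/Flag arrays, and at 17.1 to 20.1 in LSD2 shRNA arrays and 19.0 to 20.8 in scramble arrays. CDS1 lay at percentiles 60.6 to 62.1 in LSD2/eGFP/Flag arrays and 44.5 to 50.2 in eGFP/Flag arrays, and at 18.8 to 22.9 in LSD2 shRNA arrays and 19.8 to 23.9 in scramble arrays. Both control groups are labelled MDA-MB-231.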
